A study of Mus musculus with 16 samples.

Results

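The nuclear tRNA-Pro isodecoders are the cytosolic proline tRNAs, transcripts that share an anticodon and differ elsewhere in their sequence. They were taken as every nuclear row named tRNA-Pro with the anticodon AGG, CGG or TGG, without the mitochondrial tRNA-Pro and without the rows named tRX. The rule found 9 of 819 rows in the table of mouse embryonic fibroblasts (MEFs) and 9 of 821 rows in the table of hearts, with 3 AGG, 1 CGG and 5 TGG members in each. The nuclear tRNAs together made up 265 rows in the MEF table and 267 rows in the heart table.

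Transfer RNAs were sequenced by mim-tRNAseq, a method for full-length tRNA, in 16 libraries from work in which base editors target a disease-causing mutation of mt-tRNA-Ala. In cell culture, the MEF lines Cl_1, Cl_2 and Cl_3 and the line Ctrl_1 gave 2 libraries each; the labels describe them as passages of 4 cell lines, so p-values in MEFs measure the spread between passages. In mice of the m.5024T model, 4 hearts had received AAV9-DdCBE and 4 had received AAV9-GFP, so the treated and the control hearts share the model. AAV9 is a viral vector that reaches the heart, a DdCBE is a protein editor that converts cytosine in mitochondrial DNA, and GFP is a fluorescent protein used as a control. The AAV9-DdCBE hearts carried the labels 2X (mouse 26), 5X (mouse 25) and 10X (mice 17 and 18), and the AAV9-GFP hearts the labels 3X (mice 14 and 19) and 5X (mice 5 and 6). The meaning of Ctrl, Cl and the X labels is not given in the sources used here and none was interpreted, nor were the age of the mice, the dose or the genotype of the MEF lines. All samples were extracted under mild acid and their RNA was oxidised and beta-eliminated, a chemistry that separates charged from uncharged tRNA ends; the tables count transcripts and hold no charging values.

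Proline is encoded by the codons CCU, CCC, CCA and CCG, and mammals read them without a tRNA whose anticodon is GGG. In the AGG tRNA the adenosine at the wobble position is deaminated to inosine, which pairs with U, C and A, while TGG tRNAs pair with CCA and CCG, and CGG tRNAs with CCG. All of them are charged by the prolyl domain of the fused glutamyl-prolyl-tRNA synthetase EPRS1 and carry a methylated guanosine next to the anticodon, placed by TRMT5, that keeps the reading frame on runs of proline codons. Proline demand is high in cells that make collagen, fibroblasts among them. The tables hold tRNA rows only, so the labelled cell type and tissue could not be checked with marker genes.

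Summed over all rows, libraries held 1473330 to 4375975 counts (MEFs) or 1540287 to 3037178 counts (hearts). Mitochondrial tRNAs took 37.4% to 59.9% of heart counts and 2.14% to 3.74% of MEF counts, the highest value in the 10X AAV9-DdCBE heart of mouse 17.

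Nearly all proline tRNA counts came from 4 of the 9 members. By mean level, tRNA-Pro-AGG-1 ranked 13 among nuclear rows in MEFs with 17713 CPM (counts scaled to a common library size after TMM, which evens out composition), and 15 in hearts with 9727 CPM. Library totals include mitochondrial counts, which are far more in hearts, so CPM do not compare between MEFs and hearts. Of nuclear tRNA counts, AGG took on average 1.82% in MEFs and 1.71% in hearts. CGG took 0.648% and 0.433%, and TGG 1.32% and 1.03%. tRNA-Pro-TGG-2 ranked 34 in MEFs (10735 CPM) and 54 in hearts (3215 CPM), and tRNA-Pro-CGG-1, the single CGG member, ranked 49 in MEFs (6282 CPM) and 66 in hearts (2468 CPM). tRNA-Pro-TGG-1 ranked 87 in MEFs (2068 CPM) and 62 in hearts (2667 CPM). TGG-1 thus stood last of the 4 in MEFs and above CGG-1 in the mean of hearts, though below CGG-1 in both 10X hearts.

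The other 5 members gave few counts or none. tRNA-Pro-TGG-3 had 13 to 29 counts per library in MEFs and 1 to 4 in hearts. tRNA-Pro-TGG-5 had 1 to 4 counts in MEFs and 0 to 3 in hearts, and tRNA-Pro-AGG-3 had 0 to 8 counts in MEFs and a single count over all hearts. tRNA-Pro-AGG-2 and tRNA-Pro-TGG-4 had 0 counts in all 16 libraries, which allows up to 2.04 CPM in the shallowest MEF library and 1.95 CPM in the shallowest heart at 3 counts, for counting error only. The row tRNA-Pro-GGG-1, which the rule leaves out, and 4 rows named tRX-Pro also had 0 counts throughout. A minimum count per group passed 5 members in MEFs (AGG-1, CGG-1, TGG-1, TGG-2 and TGG-3) and 4 in hearts (the same without TGG-3), and only these were tested.

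A RefSeq table of an earlier mouse build, GRCm38.p6, lists 16 nuclear proline tRNA genes, of which 6 have the anticodon AGG, 3 CGG, 7 TGG and 0 GGG. Each is 72 bases long, so differences in length do not enter comparisons of level between isodecoders. In the order of genes, 4 neighbouring pairs join different proline anticodons, n-TPagg2 with n-TPcgg2, n-TPcgg1 with n-TPtgg6, n-TPtgg7 with n-TPagg5 and n-TPtgg8 with n-TPagg7. The isodecoder rows were not matched to single genes, and several genes can share 1 mature sequence.

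**Figure D1:**
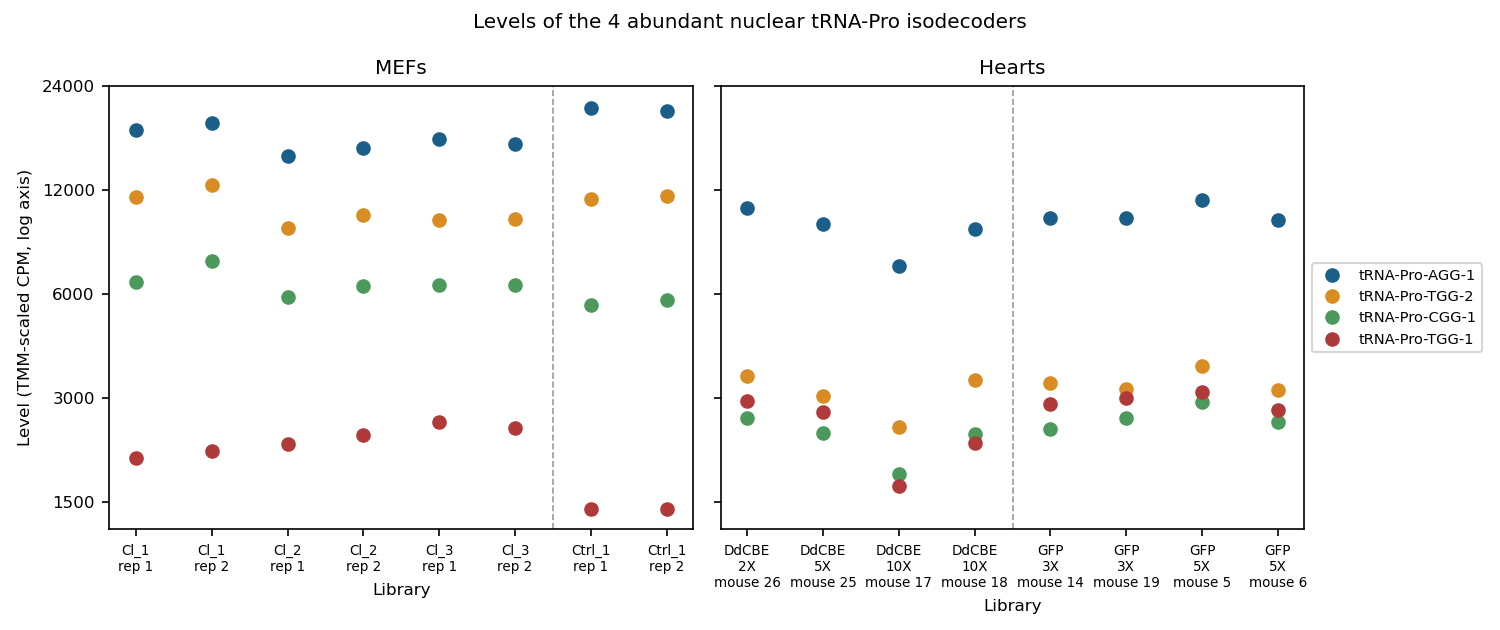
Level of the 4 abundant nuclear tRNA-Pro isodecoders in each library, as TMM-scaled CPM on a log axis, with MEFs in the left panel and hearts in the right one; dashed lines separate the Cl lines from Ctrl_1 and AAV9-DdCBE from AAV9-GFP hearts. In the 2 Ctrl_1 libraries tRNA-Pro-TGG-1 is below all 6 Cl libraries and tRNA-Pro-AGG-1 above them. In hearts the 10X heart of mouse 17 is lowest for all 4 in these CPM, whose totals include mitochondrial counts. Of nuclear tRNA counts, that heart is not lowest for AGG (1.71%, against 1.57% in mouse 6) or CGG (0.428%, against 0.407% in mouse 6).

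In MEFs, averaged over the Cl lines and set against Ctrl_1, 2 of the 5 members tested rose and 1 fell. tRNA-Pro-TGG-1 was 1.59-fold higher and tRNA-Pro-CGG-1 was 1.14-fold higher, while tRNA-Pro-AGG-1 was 1.22-fold lower. Of all 201 transcripts tested, 48.3% passed the same threshold (22.9% higher and 25.4% lower), so 3 of 5 is close to the share among transcripts at large. These calls were 46 higher and 51 lower, against 61 and 35 when counts were scaled by library totals, which put the median of all transcripts at 0.10 on the log2 scale. By line, the calls were 52 higher and 41 lower in Cl_2, against 54 and 25 with library totals, and 53 and 49 in Cl_3, against 70 and 30 with library totals. In these bulk libraries, fewer cells with a transcript and less of it per cell cannot be told apart.

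tRNA-Pro-TGG-1 had 2011 and 2103 CPM in Cl_1, 2209 and 2344 CPM in Cl_2 and 2550 and 2463 CPM in Cl_3, against 1436 and 1430 CPM in Ctrl_1. All 6 Cl libraries were above both Ctrl_1 libraries, and Cl_3 was highest. The log2 change of the mean of the Cl lines was 0.67 (SE 0.07, edgeR quasi-likelihood test, adjusted p = 2.65e-04). By line, with an SE of 0.08 for each, Cl_1 was higher by 0.52 (adjusted p = 0.00247 in edgeR), Cl_2 by 0.67 (8.09e-04) and Cl_3 by 0.81 (2.67e-04). The 3 comparisons share the 2 Ctrl_1 libraries. The differences between Cl lines did not pass (edgeR F test, adjusted p = 0.0778).

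tRNA-Pro-AGG-1, the most abundant proline tRNA, had 17848 and 18770 CPM in Cl_1, 15064 and 15839 CPM in Cl_2 and 16859 and 16340 CPM in Cl_3, against 20713 and 20275 CPM in Ctrl_1. Every Cl library was below both Ctrl_1 libraries, with Cl_2 lowest. The mean of the Cl lines fell by 0.29 on the log2 scale (SE 0.05, adjusted p in edgeR = 0.00212). With an SE of 0.06 for each line, Cl_2 fell by 0.41 (adjusted p = 0.0016 in edgeR) and Cl_3 fell by 0.30 (0.00419), whereas the change of -0.16 in Cl_1 missed the threshold (0.0633). With library totals the mean change was -0.19 (edgeR adjusted p = 0.0167) and that in Cl_3 was -0.17 and no longer passed (edgeR adjusted p = 0.0559). The Cl lines differed among themselves (edgeR F test, adjusted p = 0.043), but without any 1 of the 8 libraries this test no longer passed (edgeR adjusted p = 0.0586 to 0.131).

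tRNA-Pro-CGG-1, which pairs with CCG, had 6501 and 7479 CPM in Cl_1, 5870 and 6329 CPM in Cl_2 and 6371 and 6370 CPM in Cl_3, against 5560 and 5779 CPM in Ctrl_1. The groups did not overlap, but the lowest Cl library was close to the higher Ctrl_1 library. The mean change of 0.19 passed narrowly (SE 0.07, edgeR adjusted p = 0.0495), and by line, with an SE of 0.08 for each, it passed in Cl_1 (0.30, adjusted p = 0.0253 in edgeR) but not in Cl_2 (0.11, 0.348) or Cl_3 (0.17, 0.123). The mean change kept its sign under all 15 alternatives and passed under 4; of the 8 fits that leave out 1 library, it passed in that without Cl_1 replicate 1 (edgeR adjusted p = 0.0177), against 0.0542 to 0.225 in the other fits. The Cl_1 call was lost without Ctrl_1 replicate 1 (0.27, edgeR adjusted p = 0.111), Ctrl_1 replicate 2 (0.33, 0.0552) or Cl_1 replicate 2 (0.20, 0.123).

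tRNA-Pro-TGG-2 had 11490 and 12369 CPM in Cl_1, 9320 and 10193 CPM in Cl_2 and 9855 and 9866 CPM in Cl_3, against 11278 and 11511 CPM in Ctrl_1. Cl_1 overlapped Ctrl_1, while all Cl_2 and Cl_3 libraries were below it. Its mean change of -0.12 did not pass (SE 0.05, edgeR adjusted p = 0.102). With an SE of 0.07 for each line, it fell by 0.22 in Cl_2 (adjusted p = 0.0294 in edgeR) and by 0.21 in Cl_3 (0.0345), and its change in Cl_1 was 0.07 (0.476). The Cl_2 call was lost without either Ctrl_1 library, either Cl_3 library or Cl_2 replicate 1 (-0.24 to -0.16, edgeR adjusted p = 0.0552 to 0.168), and the Cl_3 call without either Ctrl_1 or either Cl_3 library (-0.22 to -0.19, edgeR adjusted p = 0.0987 to 0.128). Both calls were also lost with no filter (-0.22 in Cl_2 and -0.20 in Cl_3, edgeR adjusted p = 0.0653 and 0.0905) and with library totals, where the changes were -0.12 in Cl_2 (edgeR adjusted p = 0.275) and -0.07 in Cl_3 (edgeR adjusted p = 0.506). The Cl lines differed among themselves (edgeR F test, adjusted p = 0.0278), but not without either Cl_3 library, Cl_1 replicate 2 or Cl_2 replicate 1 (0.0578 to 0.114). Of 201 transcripts, 24.4% passed this test between the lines, against 2 of 5 members.

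tRNA-Pro-TGG-3 was measured at 6.86 to 12.1 CPM in the Cl libraries, against 9.15 and 4.99 CPM in Ctrl_1, and the groups overlapped (log2 change 0.27, SE 0.28, edgeR adjusted p = 0.459). Single lines called 2 members in Cl_1, where 33.8% of all transcripts passed, and 3 each in Cl_2 (46.3%, with 20.4% lower) and Cl_3 (50.7%). The mitochondrial tRNA-Pro, encoded by another genome and charged by another synthetase, had 786 to 1599 CPM in the Cl libraries, against 1101 and 1166 CPM in Ctrl_1 (log2 change 0.02, SE 0.23, edgeR adjusted p = 0.952).

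The calls on single isodecoders rest on how reads of near-identical sequences were assigned, which the sources used here do not give, so counts were also summed per anticodon. Of the 3 proline anticodons, CGG rose by 0.31 on the log2 scale (SE 0.06, adjusted p in edgeR = 0.00515), AGG fell by 0.18 (SE 0.04, edgeR adjusted p = 0.00737) and TGG was 0.11 higher without passing (SE 0.04, edgeR adjusted p = 0.0683), where 39.2% of 74 anticodons tested passed (14.9% higher and 24.3% lower). Without Ctrl_1 replicate 1 the CGG sum was at 0.24 (edgeR adjusted p = 0.0558). AGG-1 makes up nearly the whole AGG sum and CGG-1 the whole CGG sum; their values differ from those of the single rows because the scaling factors were set on sums. By line, CGG was 0.37 higher in Cl_1 (adjusted p = 0.0047 in edgeR), 0.21 in Cl_2 (0.04999) and 0.33 in Cl_3 (0.0109). AGG fell by 0.30 in Cl_2 (adjusted p = 0.00147 in edgeR) and missed the threshold in Cl_1 and Cl_3, and TGG passed in Cl_1 alone (0.20, adjusted p = 0.0272 in edgeR). These are 2 calls each in Cl_1 and Cl_2 and 1 in Cl_3, where 23% of anticodons passed in Cl_1 (9.46% higher), 35.1% in Cl_2 and 27% in Cl_3. Between the Cl lines, edgeR called 0 of the 3 sums (2 at an unadjusted p under 0.05), against 1.35% of all anticodons.

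The balance within the family, which no scaling factor touches, differed between the Cl lines and Ctrl_1. AGG made up 47.1% and 46.1% of nuclear tRNA-Pro counts in Cl_1, 46.4% and 45.6% in Cl_2 and 47.3% and 46.6% in Cl_3, against 53.1% and 52.0% in Ctrl_1. The Cl mean was 46.5% ± 0.636 (SD, n = 6) and the Ctrl_1 mean 52.6% ± 0.799 (SD, n = 2), a difference of -6.02 percentage points. CGG took 18.0% ± 0.429 in the Cl lines (n = 6) and 14.5% ± 0.397 in Ctrl_1 (n = 2), a difference of 3.44 points. TGG took 35.5% ± 0.446 in the Cl lines (n = 6) and 32.9% ± 0.402 in Ctrl_1 (n = 2), a difference of 2.58 points. For each anticodon the 6 Cl libraries and the 2 Ctrl_1 libraries did not overlap, and all 3 Cl lines had nearly the same balance.

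Each of these differences had an exact two-sided permutation p of 0.0357, the smallest that 28 splits allow, and 0.0476 after Benjamini-Hochberg adjustment over 4 shares. The AGG, CGG and TGG shares sum to the whole in each library, so the 3 differences are not separate results. The adjusted p is under 0.05 only because all 3 stand at the smallest p. The test leaves out the replicate number, though replicate 1 had the higher AGG share and the lower CGG share in all 4 lines. Taking each line's mean as 1 unit leaves 3 against 1, an exact permutation test whose p of 0.25 is the smallest of 4 splits, so that nothing can pass. The fourth share, that of nuclear tRNA-Pro among nuclear tRNA counts, was 3.77% ± 0.285 in the Cl lines (n = 6) and 3.84% ± 0.072 in Ctrl_1 (n = 2), with an exact permutation p of 0.607.

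**Figure D2:**
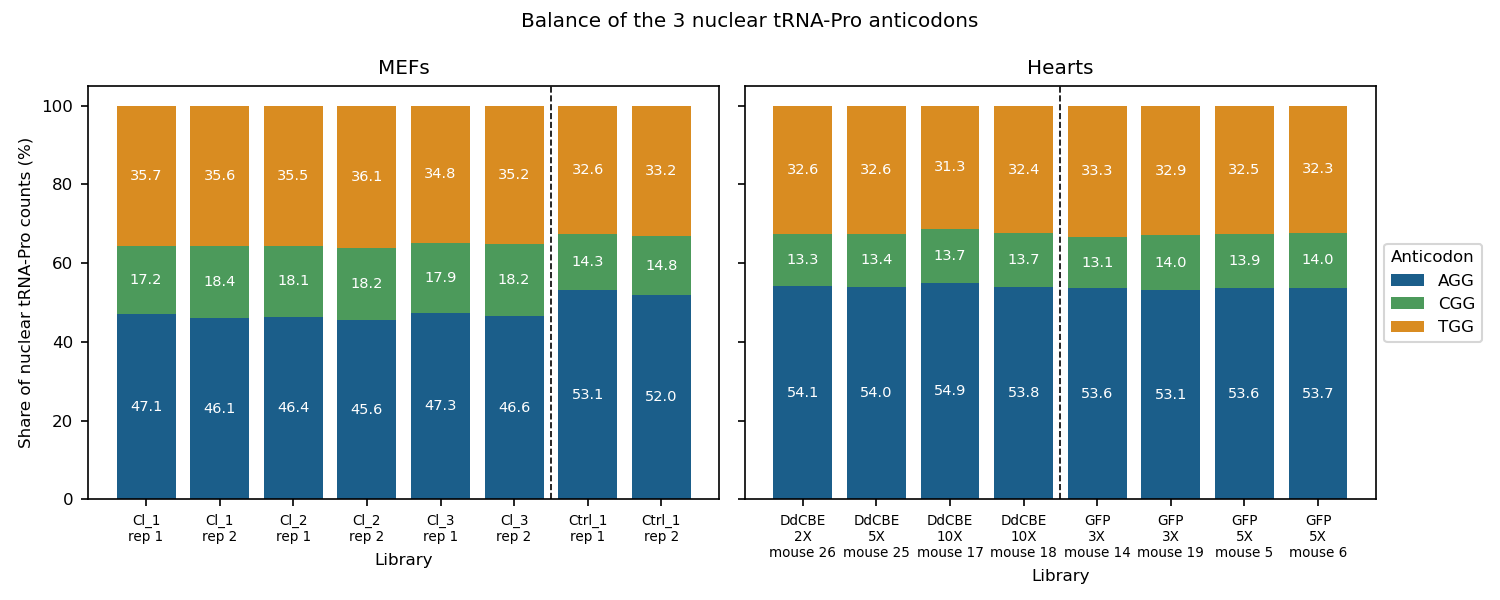
Share of nuclear tRNA-Pro counts with each anticodon, in percent, as stacked bars from 0 for each library; dashed lines separate the Cl lines from Ctrl_1 and AAV9-DdCBE from AAV9-GFP hearts. AGG lies between 45.6% and 47.3% in the 6 Cl libraries, at 53.1% and 52.0% in Ctrl_1, and between 53.1% and 54.9% in the hearts.

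Within the TGG anticodon the mix of isodecoders also differed. tRNA-Pro-TGG-1 made up 14.9% and 14.5% of TGG counts in Cl_1, 19.1% and 18.7% in Cl_2 and 20.5% and 19.97% in Cl_3, against 11.3% and 11.0% in Ctrl_1. The lines stood apart from each other by more than their replicates did, in the order Cl_3, Cl_2, Cl_1 and Ctrl_1, and no 2 lines overlapped. Counting error was small beside the gap between the Cl lines and Ctrl_1, with 95% Wilson intervals of 14.1% to 14.9% for the lowest Cl library and 11.0% to 11.6% for the higher Ctrl_1 library. Between Cl_2 and Cl_3 the intervals of the nearest libraries almost met, at 18.74% to 19.56% and 19.59% to 20.35%. The mean was 17.96% ± 2.60 in the Cl lines (SD, n = 6) and 11.2% ± 0.171 in Ctrl_1 (SD, n = 2), a difference of 6.79 points (exact two-sided permutation p = 0.0357, the smallest of 28 splits; 0.25 over lines, the smallest of 4). The test was chosen after seeing the data, and the share depends on how reads were assigned between TGG-1 and TGG-2.

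**Figure D3:**
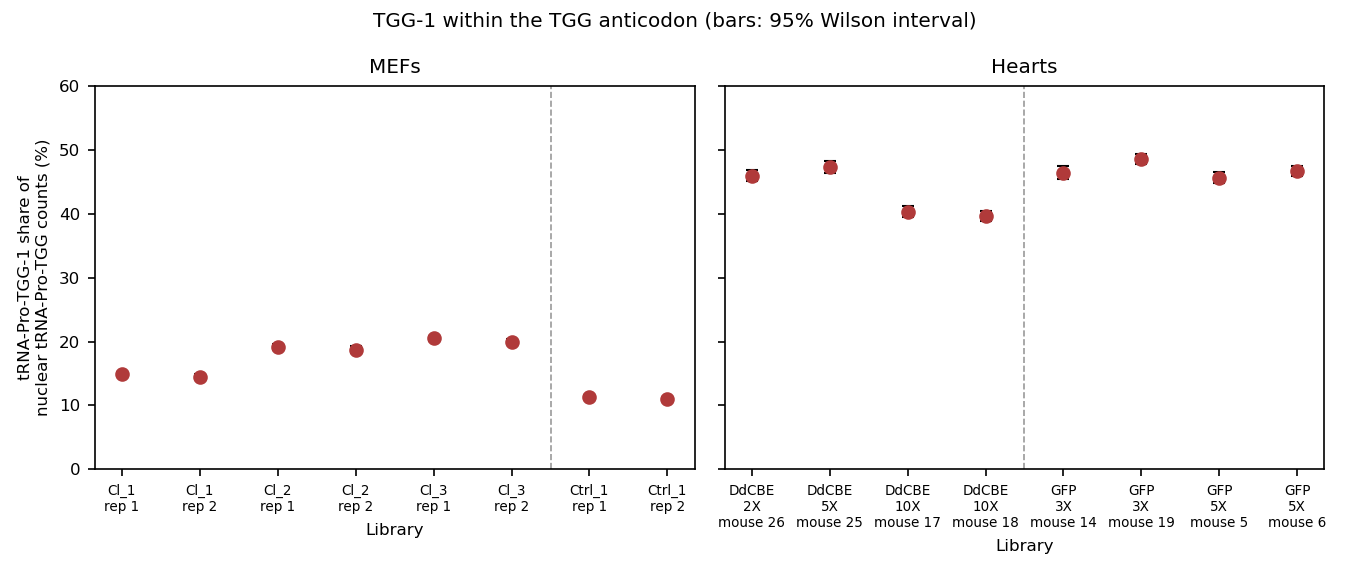
Share of tRNA-Pro-TGG-1 among nuclear tRNA-Pro-TGG counts, in percent, for each library, with 95% Wilson intervals that cover counting error only; dashed lines separate the Cl lines from Ctrl_1 and AAV9-DdCBE from AAV9-GFP hearts. The Cl libraries lie between 14.5% and 20.5%, both Ctrl_1 libraries near 11%, the 10X hearts near 40%, and the other hearts between 45.7% and 48.6%.

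In the hearts, edgeR called 0 of 4 members between AAV9-DdCBE and AAV9-GFP, with 0 of 4 at an unadjusted p under 0.05, and DESeq2 also called 0 of 4. edgeR called 0% of the 180 transcripts tested, with 35 at an unadjusted p under 0.05. DESeq2 called 27, and edgeR scaled by library totals called 14, all of them higher. All 4 members had a lower mean CPM after AAV9-DdCBE. The median change of all 180 transcripts under this scaling was -0.10 on the log2 scale. The totals behind these CPM include mitochondrial counts. As mean shares of nuclear tRNA counts, the sign turned for each anticodon, with overlapping ranges. AGG took 1.75% in treated and 1.67% in control hearts, CGG 0.438% and 0.429%, and TGG, which holds TGG-1 and TGG-2 together, 1.04% and 1.02%. The cause of this difference in sign was not tested.

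tRNA-Pro-AGG-1 had 10651 CPM in the 2X heart, 9575 CPM in the 5X heart and 7247 and 9285 CPM in the 10X hearts given AAV9-DdCBE, against 9975, 9971, 11262 and 9851 CPM in AAV9-GFP hearts. The groups overlapped through the 2X heart. The log2 change was -0.16 (SE 0.15, edgeR adjusted p = 0.471). tRNA-Pro-CGG-1 had 2629, 2375, 1814 and 2369 CPM in the same order of AAV9-DdCBE hearts, against 2447, 2629, 2923 and 2560 CPM in AAV9-GFP hearts (log2 change -0.20, SE 0.15, edgeR adjusted p = 0.373). In both, the 10X heart of mouse 17, which also had the highest mitochondrial share, was lowest. Of nuclear tRNA counts, AGG took 1.71% in that heart, within the AAV9-GFP range of 1.57% to 1.76%. CGG took 0.428% there, within the AAV9-GFP range of 0.407% to 0.458%. The 10X heart of mouse 18 was highest of all hearts for both, at 1.89% and 0.483%. The part of the mitochondrial share in these values was not tested.

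tRNA-Pro-TGG-1 had 2950 CPM in the 2X heart, 2732 CPM in the 5X heart and 1667 and 2220 CPM in the 10X hearts, against 2875, 3005, 3122 and 2766 CPM in AAV9-GFP hearts (log2 change -0.30, SE 0.18, edgeR adjusted p = 0.323). In these CPM, whose totals include mitochondrial counts, both 10X hearts were below all others, and the 2X heart lay within the AAV9-GFP range. Over nuclear counts alone, the 10X heart of mouse 18 lay above the AAV9-GFP heart of mouse 6. The TGG-1 counts were 5204 of 1149667 nuclear counts in mouse 18 and 7031 of 1599773 in mouse 6. The part of the mitochondrial share in the TGG-1 level was not tested. tRNA-Pro-TGG-2 had 3464, 3042, 2469 and 3377 CPM in AAV9-DdCBE hearts in that order, against 3317, 3180, 3712 and 3160 CPM in AAV9-GFP hearts (log2 change -0.11, SE 0.14, edgeR adjusted p = 0.604). Unlike TGG-1, TGG-2 in the 10X heart of mouse 18 lay within the AAV9-GFP range.

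Split by the X label, a design chosen with earlier results of these data known, the 10X hearts had 1 of 4 members past the threshold against AAV9-GFP, where 51.7% of 180 transcripts passed (23.9% higher and 27.8% lower), so the members' share is below the background. This member was tRNA-Pro-TGG-1, which averaged 1944 ± 391 CPM in the 10X hearts (SD, n = 2) and 2942 ± 155 CPM in AAV9-GFP hearts (SD, n = 4). It fell by 0.60 on the log2 scale (SE 0.16, adjusted p in edgeR = 0.0167), or 1.51-fold. The changes of the others did not pass, at -0.31 for AGG-1 (SE 0.16, edgeR adjusted p = 0.129), -0.34 for CGG-1 (SE 0.16, edgeR adjusted p = 0.106) and -0.19 for TGG-2 (SE 0.17, edgeR adjusted p = 0.339). The size of these values depended on the scaling: with nuclear rows alone AGG-1 was at -0.04 (edgeR adjusted p = 0.774) and CGG-1 at -0.07 (edgeR adjusted p = 0.701). The median of all 180 transcripts was -0.23 under this scaling, and the calls were 43 higher and 50 lower, against 49 and 15 with DESeq2's size factors and 48 and 9 with library totals.

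The TGG-1 call in the 10X hearts depended on the processing. Its direction held in 14 alternatives (-0.82 to -0.33, adjusted p = 0.00497 to 0.165 by edgeR or DESeq2), and it passed in 4 of them. With DESeq2's size factors in the edgeR fit, which moved the median of all transcripts to -0.04, the change was -0.41 (edgeR adjusted p = 0.0628). Without mouse 17 it was -0.41 (edgeR adjusted p = 0.072), without mouse 5, 6, 25 or 26 it was -0.45 to -0.39 (edgeR adjusted p = 0.0818 to 0.165), and without mouse 18 it was -0.82 (edgeR adjusted p = 0.00497), where all 4 members passed.

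Against the 5X and 2X AAV9-DdCBE hearts, the 10X hearts again differed in 1 of 4 members, TGG-1 (log2 change -0.55 with SE 0.18, adjusted p = 0.0499 in edgeR), where 31.1% of 180 transcripts passed (20.6% higher and 10.6% lower; 37 and 19 transcripts, against 39 and 7 with DESeq2's size factors and 39 and 0 with library totals). The 5X and 2X groups are 1 heart each, and the call passed in 2 of 14 alternatives, with adjusted p = 0.00948 to 0.355 by edgeR or DESeq2. Of the fits without 1 heart, it passed in those without mouse 14 or mouse 18. This comparison and the previous one share the 10X hearts.

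**Figure D4:**
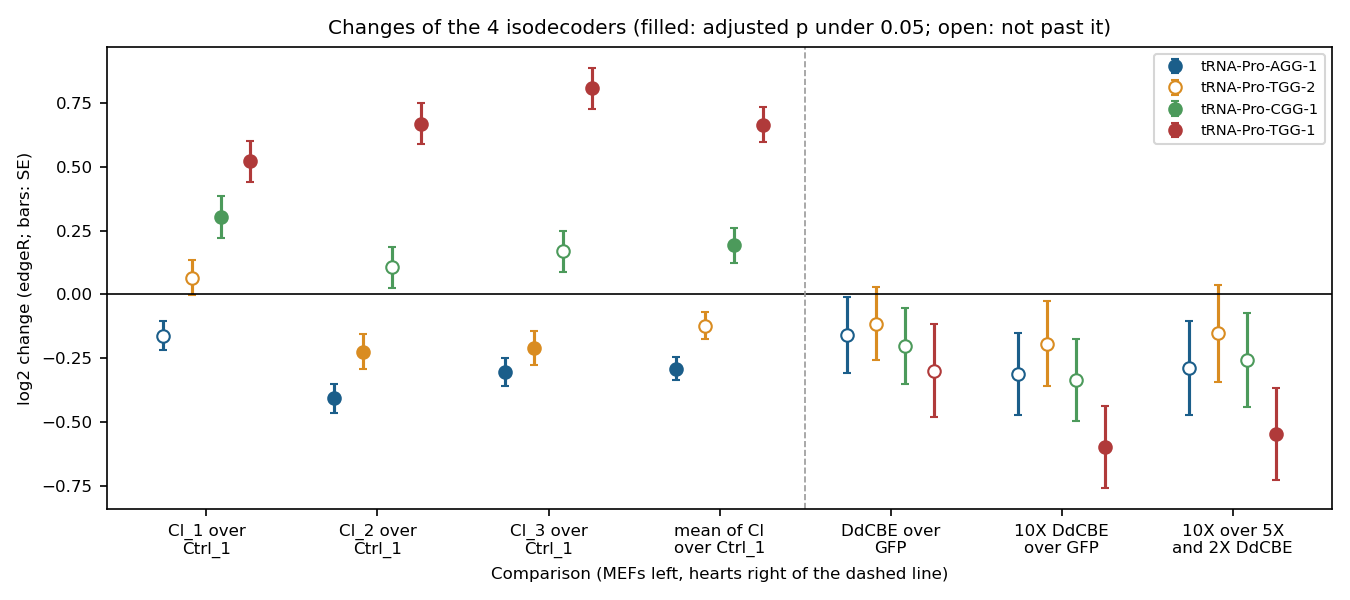
Log2 change of the 4 abundant nuclear tRNA-Pro isodecoders in each comparison (edgeR fit, bars are the SE), with MEF comparisons left and heart comparisons right of the dashed line; filled points have an adjusted p under 0.05 over all transcripts tested. tRNA-Pro-TGG-1 is highest in the MEF comparisons, at 0.52 to 0.81, and lowest in the heart comparisons, at -0.30 to -0.60; comparisons left of the line share the Ctrl_1 libraries.

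The anticodon sums in hearts gave 0 of 3 calls for AAV9-DdCBE against AAV9-GFP and 0 of 3 for the 10X hearts, by edgeR and by DESeq2, with 0 of 3 at an unadjusted p under 0.05 in both, where edgeR called 0% of 70 anticodons. Their log2 changes for AAV9-DdCBE were 0.034 for AGG (SE 0.07), -0.0046 for CGG (SE 0.07) and -0.0071 for TGG (SE 0.07). In the 10X hearts the log2 differences of the sums from AAV9-GFP were 0.044 for AGG (SE 0.09), 0.020 for CGG (SE 0.09) and -0.016 for TGG (SE 0.10), so that AGG and CGG differ in sign from AGG-1 and CGG-1, whose counts they hold, under the scaling set on transcripts.

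The balance of anticodons in hearts was nearly the same in both treatments. Of nuclear tRNA-Pro counts, AGG took 54.2% ± 0.484 in AAV9-DdCBE hearts and 53.5% ± 0.282 in AAV9-GFP hearts (SD, n = 4 each), with a range of 53.8% to 54.9% against 53.1% to 53.7%. The difference of 0.717 points had an exact permutation p of 0.0286, the smallest of 70 splits, but 0.114 after adjustment over 4 shares. CGG took 13.6% ± 0.211 in AAV9-DdCBE hearts and 13.8% ± 0.407 in AAV9-GFP hearts (n = 4 each, exact permutation p = 0.429). TGG took 32.2% ± 0.600 in AAV9-DdCBE hearts and 32.8% ± 0.426 in AAV9-GFP hearts (n = 4 each, exact permutation p = 0.257). The family's share of nuclear tRNA counts was 3.23% ± 0.196 in AAV9-DdCBE hearts and 3.12% ± 0.183 in AAV9-GFP hearts (n = 4 each, exact permutation p = 0.514).

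The TGG-1 share of TGG counts was 45.99% in the 2X heart, 47.3% in the 5X heart and 40.3% and 39.7% in the 10X hearts given AAV9-DdCBE, against 46.4%, 48.6%, 45.7% and 46.7% in AAV9-GFP hearts. Both 10X hearts lay below the AAV9-GFP range and the other AAV9-DdCBE hearts within it. The 10X hearts also had the 2 highest mitochondrial shares of all tRNA counts, 59.9% in mouse 17 and 44.5% in mouse 18, against 37.4% to 43.3% in the other 6 hearts; the part of that share in the TGG mix was not tested. Over all hearts the difference was -3.52 points (exact permutation p = 0.229), and for the 10X hearts against AAV9-GFP it was -6.85 points (exact permutation p = 0.0667, the smallest of 15 splits, so that nothing can pass). Both tests were chosen after seeing the data.

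Between the sets, the TGG mix was further apart than within either. TGG-1 made up 39.7% to 48.6% of TGG counts in the 8 hearts and 11.0% to 20.5% in the 8 MEF libraries. CGG took 13.1% to 14.0% of nuclear tRNA-Pro counts in hearts and 14.3% to 18.4% in MEFs, whereas the AGG ranges met, with 53.1% to 54.9% in hearts and 45.6% to 53.1% in MEFs. The mitochondrial tRNA-Pro gave 40.2% to 64.2% of all proline tRNA counts in hearts and 2.03% to 4.36% in MEFs. Tissue and set of libraries cannot be told apart here, the tables were normalized separately, and no test was made.

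Beside the proline tRNAs, other nuclear tRNAs with an adenosine at the first anticodon position had 4 higher and 7 lower of 29 tested in the mean of the Cl lines (median log2 change 0.08). The tRNAs Leu-AAG, Leu-CAG, Leu-TAG and Arg-CCG had 3 higher and 4 lower of 12 (median -0.06). They are among the tRNAs that read other codons beginning with C, and were listed for a guanosine next to the anticodon. These lists share the Leu-AAG transcripts. All nuclear tRNAs outside the proline family, both lists included, had 44 higher and 37 lower of 170 (median 0.06), and the 5 proline members a median of 0.19. In the hearts, edgeR called 0 of these lists' members between AAV9-DdCBE and AAV9-GFP.

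The transcripts whose log2 CPM followed an anticodon sum most closely over the 8 libraries of a set were found among 196 candidates in MEFs and 176 in hearts, as a description. In MEFs they were tRNA-Glu-TTC-2 (Pearson r = 0.94), tRNA-Met-CAT-2 (0.93) and tRNA-Gly-CCC-1 (0.91) for AGG. For CGG they were tRNA-Trp-CCA-6 (0.92), tRNA-Asp-GTC-2 (0.90) and tRNA-Ser-GCT-5 (0.87), and for TGG tRNA-Leu-CAA-2 (0.86), the mitochondrial tRNA-Ser-TGA (0.85) and tRNA-Arg-CCG-2 (0.83). In hearts tRNA-Gly-TCC-1 was among the 3 nearest for all 3 anticodons (0.97, 0.97 and 0.95 for AGG, CGG and TGG). The points are libraries of 2 groups in hearts and 4 lines in MEFs and share their depth and scaling factor.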

How the data were processed

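The authors deposited raw read counts per tRNA transcript, 1 table for MEFs and 1 for hearts; the values are whole numbers and were used as deposited. Per the labels' protocols, RNA from acidic extraction went through oxidation, beta-elimination and mim-tRNAseq with Illumina sequencing. The submitters' processing notes name cutadapt 3.5 and mm39. Which aligner and counter they used, and how reads shared by near-identical tRNAs were handled, is not stated in them or in the labels. All 16 columns matched sample titles. No library was a copy of another in its group (chi-square over degrees of freedom of 93.9 to 1781 in 16 pairs).

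Each table was fitted whole in R 4.3.3 with edgeR 4.0.16 (TMM, filterByExpr by line or treatment with minimum count 10 and minimum total 15, glmQLFit, glmQLFTest), and p-values were adjusted by Benjamini-Hochberg over all transcripts tested, with a threshold of 0.05. The SE of a log2 change is its size over the square root of F. For shares, two-sided exact permutation tests ran over libraries (Python 3.11.15), and Wilson intervals were from SciPy 1.17.1. DESeq2 1.42.0 was an alternative, beside other scalings, no filter, each library left out, the replicate number as a block and libraries summed per line.

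Every member was described; the 3 most correlated transcripts per anticodon (log2 CPM with prior count 2) and the lists of other tRNAs were named by rule. The members and lists were chosen with earlier results of these data known, and the filter by X label was added after the data were examined. Deviations of same-numbered MEF libraries correlated at 0.0698 to 0.248, not above 0.1 in every pair, so the numbers were not taken to pair samples. On data simulated for these designs, the fit recovered 68.75% of 1.5-fold and 89.25% of 2-fold changes for the Cl mean against Ctrl_1 (201 transcripts, 5.39% of calls false). It recovered 24.25% and 57.75% for AAV9-DdCBE against AAV9-GFP (180 transcripts, 3.81% false), and 26.5% and 78.25% for the 10X hearts against AAV9-GFP (180 transcripts, 6.68% false). These rates describe the simulated data. With the real counts, edgeR called 48.3% of transcripts for the Cl mean and 51.7% for the 10X hearts against AAV9-GFP. The balance of higher and lower calls there moved with the scaling. Whether the simulated rates hold under such conditions was not tested. Intervals and floors cover counting error only.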

Additional observations from a re-analysis of the deposited data

Results flagged for a closer look

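Of the 22 heart groups of 4 examined, 6 had 1 heart set apart. Its gap to the next took more of the group's range than Dixon's critical value for 4 samples. For 1 group, chance gives about 1 in 20. The groups share hearts and counts, and the AAV9-DdCBE groups mix X labels, so 6 of 22 cannot be set against that rate. The 10X heart of mouse 17 stood apart from the other AAV9-DdCBE hearts in the mitochondrial tRNA-Pro level (23670 CPM, gap 0.868 of the range), in the mitochondrial share of all proline tRNA counts (64.2%, gap 0.940) and in the TGG share of nuclear tRNA-Pro counts (31.3%, gap 0.888). Among AAV9-GFP hearts, mouse 14 stood apart in the mitochondrial tRNA-Pro level (17070 CPM, gap 0.857) and in the CGG share (13.1%, gap 0.900), and mouse 5 in tRNA-Pro-AGG-1 (11262 CPM, gap 0.912).

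The Cl lines differed among themselves in tRNA-Pro-AGG-1 (edgeR F test, adjusted p = 0.0430) and tRNA-Pro-TGG-2 (edgeR F test, adjusted p = 0.0278). Between the 10X hearts and the other AAV9-DdCBE hearts, tRNA-Pro-TGG-1 differed (edgeR adjusted p = 0.0499).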

How the results depend on the processing

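Averaged over the Cl lines, tRNA-Pro-TGG-1 (0.60 to 0.77) and tRNA-Pro-AGG-1 (-0.36 to -0.19) kept their direction in all 15 alternatives and passed in 14 each; with the libraries of each line summed, 0 of the members and 0 of the anticodon sums passed. Without 1 library, 2 to 3 members and 1 to 2 sums passed in that comparison, 1 to 2 members in Cl_1, and 2 to 3 each in Cl_2 and Cl_3. Between the Cl lines 2 members passed, 0 with library totals, 1 with no filter and 0 to 1 without 1 library. The replicate numbers were not taken to pair the libraries. With the replicate block 3 members still passed in the mean of the Cl lines (CGG-1 at edgeR adjusted p = 0.0285), as did 3 anticodon sums in place of 2. The share differences stayed at -6.02, 3.44 and 2.58 points. Their adjusted exact permutation p was 0.0833, but the block leaves too few splits for any adjusted p under 0.05, so that nothing can pass. In all 4 lines replicate 1 had the higher AGG share and the lower CGG share.

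The MEF share differences ranged over -6.59 to -5.46 points for AGG, 3.16 to 3.73 for CGG and 2.30 to 2.86 for TGG without 1 library, when fewer splits leave no adjusted p under 0.05. As shares of all nuclear tRNA counts they were -0.263, 0.12 and 0.0746 points (adjusted exact permutation p = 0.143, 0.143 and 0.476). As means over lines they were -6.02, 3.44 and 2.58. The family share, -0.0679 points, ranged over -0.163 to 0.0156 without 1 library.

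For the 10X hearts, 1 member passed against AAV9-GFP and 1 against the 5X and 2X hearts. Both counts were 0 with DESeq2 size factors, library totals, nuclear rows alone, no filter or the filter by X label, and the second also with the DESeq2 test; without 1 heart they were 0 to 4 and 0 to 2. In all, 93 transcripts passed in the 10X hearts against AAV9-GFP, and 64 with DESeq2 size factors, 57 with library totals. The causes were not tested.

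Values that changed sign in hearts had not passed. The TGG-2 change was 0.016 for AAV9-DdCBE with nuclear rows alone. In the 10X hearts against AAV9-GFP it was 0.075 with nuclear rows and 0.026 with no filter. Against the 5X and 2X hearts it was 0.016 with DESeq2 size factors or test, 0.12 with nuclear rows, 0.059 with no filter and 0.042 with the filter by X label, and CGG-1 was 0.021 with nuclear rows. Without 1 heart, TGG-2 ranged over -0.16 to 0.030, -0.44 to 0.039 and -0.39 to 0.13 in these comparisons. The sums for AAV9-DdCBE were -0.068 for AGG with library totals, 0.023 and 0.0032 for CGG and 0.020 and 0.0011 for TGG with nuclear rows and no filter. Without 1 heart they ranged over -0.026 to 0.074, -0.060 to 0.035 and -0.074 to 0.051. The sums for the 10X hearts were -0.20 for AGG and -0.22 for CGG with library totals, -0.0013 and -0.024 with the filter by X label, and 0.036 for TGG with nuclear rows. Without 1 heart they ranged over -0.068 to 0.12, -0.086 to 0.11 and -0.13 to 0.096. The heart shares of all nuclear tRNA counts differed by 0.00831 points for CGG and 0.0169 for TGG. TGG-3 in MEFs ranged over -0.14 to 0.73 in the mean, -0.29 to 0.59 in Cl_2 and -0.28 to 0.59 in Cl_3 without 1 library.

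The number of samples, 2 libraries per line and 1 AAV9-DdCBE heart each at 5X and 2X, limits the precision for the 4 abundant members; for the other 5, with 0 to 29 counts per library, depth limits it too.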
